A study of Mus musculus with 10 samples.

Results

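The genes described here are 10 components of the small RNA pathways, measured in oocytes of wild-type (WT) and Patl2-deficient mice. Drosha and Dgcr8 act in the nuclear step of microRNA production, Dicer1 and Tarbp2 in the cytoplasmic cut, Ago1, Ago2, Ago3 and Ago4 encode the Argonautes that carry the guide, and Piwil2 and Mael belong to the piRNA pathway. They were chosen by name, and each was read from the transcript cluster annotated to it, a cluster being the set of probes that the array assigns to 1 transcribed unit. Every gene had exactly 1 such cluster, so the members are 10 of the 65956 clusters tested.

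Each sample was RNA from a pool of oocytes, read on its own Clariom D mouse array (Affymetrix), and there were 10 arrays in all. The groups were WT oocytes at the germinal vesicle stage (WT GV, n = 2), WT oocytes at metaphase II (WT MII, n = 2), Patl2-/- oocytes at GV (KO GV, n = 3) and Patl2-/- oocytes at MII (KO MII, n = 3). All females received 5 UI of PMSG. GV oocytes were taken 44 h later, and MII oocytes came from females given 5 UI of hCG at 48 h, with collection 12 h after hCG per the labels and 13 h per the methods. The methods give an age of 3 to 8 weeks for the females at GV collection, and those oocytes were held in dibutyryl cyclic AMP, which blocks maturation. The KO allele (C57BL/6NTac-Patl2 tm1a) carries a LacZ cassette and lacks exon 7, which was removed with a Cre driven by the adenoviral EIIa promoter, active in early embryos, so the deletion was not limited to oocytes. The strain of the WT females is not given in the sources used here. A sample held 20 to 32 GV or 28 to 46 MII oocytes per the labels, and 250 pg of RNA was labelled for each array. The paper reports that more oocytes were released before MII in Patl2-/- than in WT females. Its methods do not state whether the MII pools were selected by polar body. The part of such oocytes in the MII differences below was not tested.

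MicroRNAs begin as hairpins in longer transcripts. The Microprocessor, made of the nuclease DROSHA and its RNA-binding partner DGCR8, frees the hairpin in the nucleus, DICER1 trims it to a duplex in the cytoplasm, and an Argonaute protein holds 1 strand as a guide to target mRNAs. Endo-siRNAs are cut by DICER1 directly from long double-stranded RNA, without the Microprocessor, and piRNAs are bound by PIWI proteins and made without DICER1. Mouse oocytes are known for their abundant endo-siRNAs, for a short oocyte form of DICER1 transcribed from a retrotransposon promoter, and for microRNAs with little activity on their targets. The single Dicer1 cluster analysed here does not tell the oocyte form from the somatic form.

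The cluster that stands for Dgcr8 is also annotated to 2 microRNA genes, Mir1306 and Gm24572 (an annotation name of Mir3618), whose hairpins lie within the Dgcr8 gene and are cut out of its own transcript by the Microprocessor. Their mature sequences, from RefSeq on GRCm38.p6, are shown because the signal called Dgcr8 below covers a transcript that holds these hairpins, and the capitals mark the seed (bases 2 to 8), the stretch that pairs with targets. The mature RNAs lie on the minus strand of chromosome 16, miR-1306-5p at chr16:18284288-18284310, miR-1306-3p at chr16:18284248-18284268, miR-3618-5p at chr16:18284602-18284623 and miR-3618-3p at chr16:18284562-18284583.
mmu-miR-1306-5p: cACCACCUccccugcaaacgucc
mmu-miR-1306-3p: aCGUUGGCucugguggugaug
mmu-miR-3618-5p: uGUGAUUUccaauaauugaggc
mmu-miR-3618-3p: cUACAUUAaugaaaagagcaau
The 4 seeds differ from each other.

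Mature microRNAs themselves were not read by these arrays, which label longer transcripts. As an example of what lies beyond their reach, the let-7 family, the best-known microRNA family whose precursors are blocked by LIN28, is shown by 3 of its mature 5p sequences. All 8 distinct let-7 5p names in RefSeq share 1 seed, in capitals, and differ only outside it.
mmu-let-7a-5p: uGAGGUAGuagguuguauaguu
mmu-let-7d-5p: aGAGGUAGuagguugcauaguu
mmu-let-7g-5p: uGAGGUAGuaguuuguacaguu
The copies used lie at chr13:48538239-48538260 (let-7a-5p, minus strand), chr13:48536078-48536099 (let-7d-5p, minus strand) and chr9:106178846-106178867 (let-7g-5p, plus strand). The 11 let-7 hairpin clusters on the array had levels between 3.32 and 6.01 on the log2 scale. None exceeded the 90th percentile of the negative controls on any array, and 0 were called in any comparison.

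Levels are log2 values after RMA, which corrects, quantile-normalises and summarises the probes, and a difference of 1 is a 2-fold change. The same amount of RNA was labelled for every array, so a level is relative to equal RNA and is not an amount per oocyte. The paper reports less RNA per oocyte at MII than at GV. Rises and falls from GV to MII below are therefore relative, and whether they hold per oocyte was not tested. The 90th percentile of the 5222 negative-control probe sets lay between 6.14 and 6.46 across the arrays, and a level below it is taken as not above background. Between 15624 and 16913 clusters per array were above 6, with MII arrays (15624 to 15856) below GV arrays (16601 to 16913). All 11 oocyte markers were above background in WT GV, KO GV and KO MII and 10 of 11 in WT MII, where Figla was not. Of 16 granulosa and cumulus cell markers, 4 were above background in WT GV, 5 in KO GV, 2 in WT MII and 4 in KO MII, and of 10 markers of theca, stroma, vessel and blood cells only Cd68 and Pecam1 were, in all 4 groups. The Patl2 cluster, which checks the labels, read 11.70 and 10.92 in WT GV, 7.71, 7.36 and 8.07 in KO GV, 8.73 and 8.55 in WT MII and 6.44, 6.10 and 6.59 in KO MII. At each stage every KO array was below every WT array. The labels call the samples biological replicates without naming separate animals, so a p-value measures the spread between pools of oocytes.

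Between genotypes few of the 10 members were called. Tested over all clusters with limma and Benjamini-Hochberg adjustment and called at an adjusted p under 0.05, 0 of 10 members were called at GV, where 0.121% of all clusters were, and 0 of 10 at MII, where 0.829% were. At an unadjusted p under 0.05, 3 members were below that value at each stage, Dicer1, Ago3 and Mael at GV, where 9.23% of all clusters were, and Dgcr8, Dicer1 and Ago3 at MII, where 12.3% were. Averaged over both stages, 1 of 10 was called, Dicer1, which rose in KO oocytes, against 1.89% of all clusters (0.776% in that direction). Maturation was called more often over the whole array: from GV to MII 0 of 10 members were called in WT oocytes, against 7.15% of all clusters, and 2 of 10 in KO oocytes, Ago3 higher and Tarbp2 lower, against 10.5% (3.37% higher and 7.14% lower). Over the 16316 clusters with a mean level of at least 6, which 7 of the 10 members reached, the background was 0.38% at GV, 2.97% at MII, 6.65% for the average, 23.7% for WT maturation and 33.3% for KO maturation. The 2 calls among these 7 members in KO maturation are no larger a share than that of all clusters at such levels. Arrays of the 2 genotypes did not overlap for 4 of 10 members at GV (21.0% of all clusters), 4 at MII (28.0%) and 1 over both stages together (2.18%), and the 2 stages did not overlap for 6 in WT (45.1%) and 5 in KO oocytes (26.5%). The genotype effect did not differ between MII and GV by the adjusted test for any member or for any of the 65956 clusters (0 called by limma, 3952 clusters with an unadjusted p under 0.05, none of them a member).

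**Figure D1:**
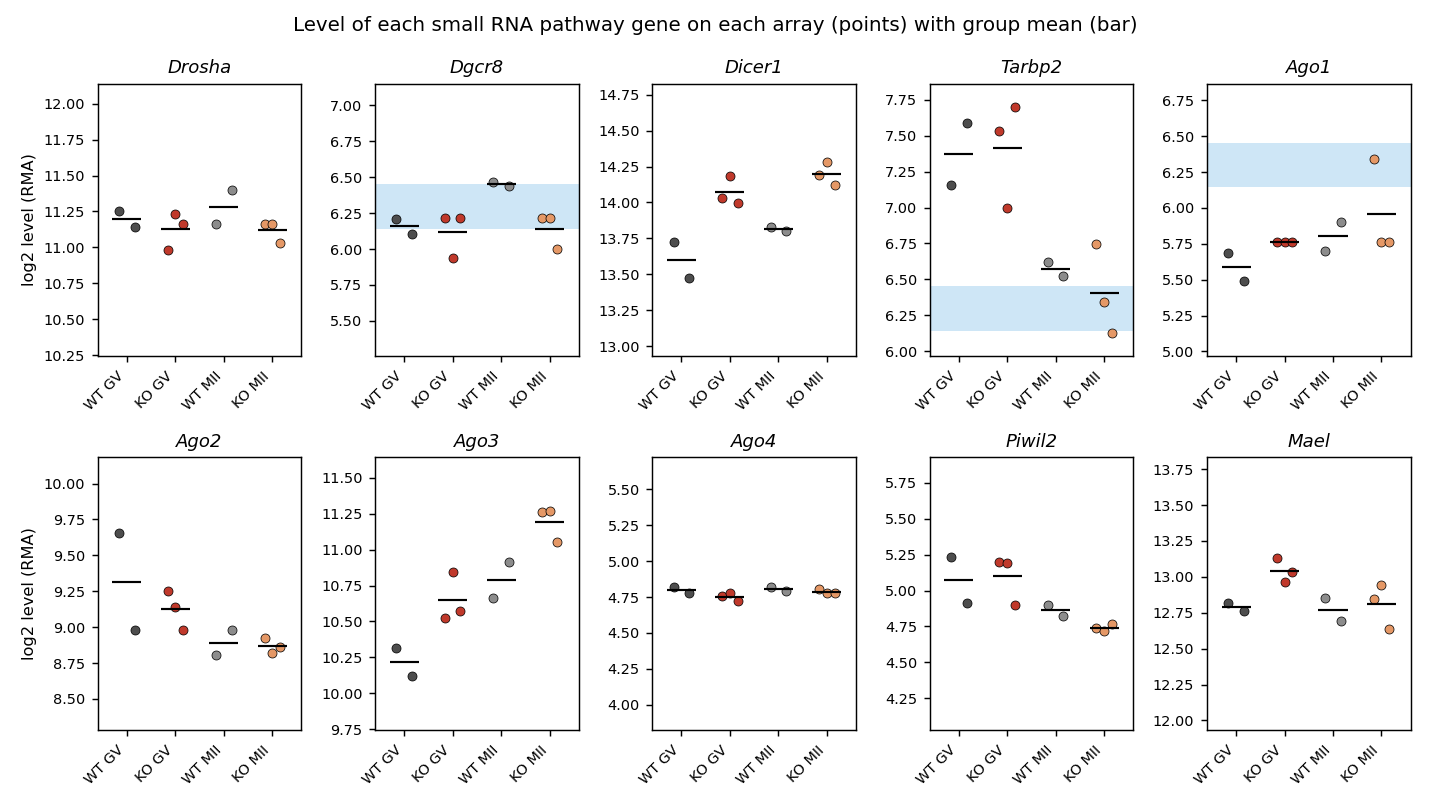
Level of each member on each array, as log2 values after RMA on the vertical axis, for WT GV (n = 2), KO GV (n = 3), WT MII (n = 2) and KO MII (n = 3), with points for arrays, bars for group means and a blue band for the range of the 90th percentile of the negative controls (6.14 to 6.46). All panels span the same height. The Dicer1 points of all 6 KO arrays (14.00 and above) lie above those of all 4 WT arrays (13.83 and below), Ago3 is higher and Tarbp2 lower at MII than at GV, and Ago4 and Piwil2 stay below it.

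Drosha, the nuclease of the Microprocessor, was present at a steady level in every group. It read 11.25 and 11.14 in WT GV, 10.98, 11.23 and 11.16 in KO GV, 11.16 and 11.40 in WT MII and 11.16, 11.16 and 11.03 in KO MII. The arrays of all 4 groups overlapped, and the whole range over 10 arrays was 0.42 on the log2 scale. KO against WT, the difference was -0.07 at GV (95% interval -0.31 to 0.17, adjusted p = 0.925) and -0.16 at MII (-0.41 to 0.08, adjusted p = 0.615), in limma over all clusters. From GV to MII it was 0.08 in WT and -0.01 in KO oocytes (adjusted p = 0.801 and 0.977), but with the arrays quantile-normalised once more these became 0.62 and 0.49 and were called (adjusted p = 0.0128 and 0.0117), so the direction of Drosha across maturation depended on the scaling. The value 11.16 occurred identically on 4 arrays, as the median polish of RMA can give, and the spread of such a gene is then partly set by the summary.

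Dgcr8, the RNA-binding partner, lay at the edge of background. Its levels were 6.21 and 6.11 in WT GV, 6.21, 5.94 and 6.21 in KO GV, 6.46 and 6.44 in WT MII and 6.21, 6.21 and 5.999 in KO MII. Only 2 of the 10 arrays were above the negative-control percentile of their own array. Both WT MII arrays stood above the other 8. The KO MII arrays were lower than WT MII by 0.31 (95% interval 0.06 to 0.56 lower, adjusted p = 0.294), and WT MII was higher than WT GV by 0.29 (adjusted p = 0.245). Neither passed the test. With a further quantile normalisation the WT maturation difference was 0.52 and was called (adjusted p = 0.0332).

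Dicer1, the nuclease that makes both microRNAs and endo-siRNAs, was the only member called by genotype in the main fit, in the average over both stages. Ago3 had a similar average excess of 0.42 that was not called there (limma adjusted p = 0.0734) but was under filters described below. The Dicer1 levels were 13.72 and 13.48 in WT GV and 14.03, 14.19 and 14.00 in KO GV. At MII they were 13.83 and 13.80 in WT and 14.19, 14.28 and 14.12 in KO oocytes. Every KO array was above every WT array, within and across stages. The KO levels were higher by 0.47 ± 0.10 at GV (SE, 95% interval 0.25 to 0.70, adjusted p = 0.144) and by 0.38 ± 0.10 at MII (0.16 to 0.61, adjusted p = 0.146), neither called alone. Averaged over both stages Dicer1 was 0.43 ± 0.07 higher in KO oocytes, 1.34-fold, and was called (limma adjusted p = 0.0264, 6 of 6 KO arrays above all WT arrays). The KO excess was of the same order at both stages, with a difference between them of -0.09 (95% interval -0.41 to 0.23, adjusted p = 0.946).

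The call of Dicer1 is close to the threshold. It was lost without the second WT GV array (adjusted p = 0.0739), the first or second WT MII array (0.082 and 0.0849), the first KO GV array (0.0556) or any of the 3 KO MII arrays (0.0618, 0.0623 and 0.0542), while the difference stayed between 0.36 and 0.49 with each array left out in turn. The MII minus GV difference of Dicer1 was 0.22 in WT and 0.13 in KO oocytes, which did not pass the test (adjusted p = 0.354 and 0.457) but were 0.57 and 0.44 and called under a further quantile normalisation (adjusted p = 0.0337 and 0.0338). The spiked hybridisation controls, which carry no oocyte RNA, were also brighter on KO arrays (11.58 to 11.98) than on WT arrays (11.25 to 11.46). The summed level of the 11 oocyte markers at MII was higher in KO (158.32 to 159.79) than in WT (156.21 to 156.82). At GV the sums overlapped (161.92 to 162.57 in KO and 161.65 to 162.27 in WT). Of the 11 markers, 9 were numerically higher in KO oocytes at MII and 7 at GV. The part of the spiked controls and of the markers in the Dicer1 difference was not tested.

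Tarbp2, the double-stranded RNA binding partner of DICER1, ran the other way across maturation. It read 7.16 and 7.59 in WT GV and 7.54, 6.999 and 7.70 in KO GV, against 6.62 and 6.52 in WT MII and 6.75, 6.34 and 6.12 in KO MII. Every MII array was below every GV array, and 2 of the KO MII arrays were not above background. The fall was -1.01 ± 0.22 in KO oocytes (95% interval -1.52 to -0.49, 2.01-fold lower, adjusted p = 0.0245) and was called. In WT oocytes it was -0.80 ± 0.27 (-1.43 to -0.17, adjusted p = 0.152) and was not. The 2 stage differences were not shown to differ (by -0.21, 95% interval -1.02 to 0.60, adjusted p = 0.952). KO against WT, Tarbp2 differed by 0.04 at GV (-0.53 to 0.61) and -0.17 at MII (-0.74 to 0.41), with overlapping arrays.

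The Tarbp2 call in KO oocytes did not hold under every setting. It was lost when the arrays were quantile-normalised once more (-0.75, adjusted p = 0.0716), when only the 6 KO arrays were fitted (0.0658), and without the first or the third KO GV array (0.0848 and 0.0784) or the second or the third KO MII array (0.0786 and 0.087). The granulosa and cumulus cell markers also read lower at MII. Their summed level over 16 genes was 88.31 to 96.97 in WT GV and 93.74 to 96.42 in KO GV, and 83.14 to 85.07 in WT MII and 85.73 to 91.81 in KO MII. Of the 16, 2 were called lower in WT maturation, and 5 lower and 1 higher in KO maturation. Because a pool is read as 1 sample, fewer cells of a type and less RNA per cell cannot be told apart, and the part of follicular cells in the Tarbp2 difference was not tested.

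**Figure D2:**
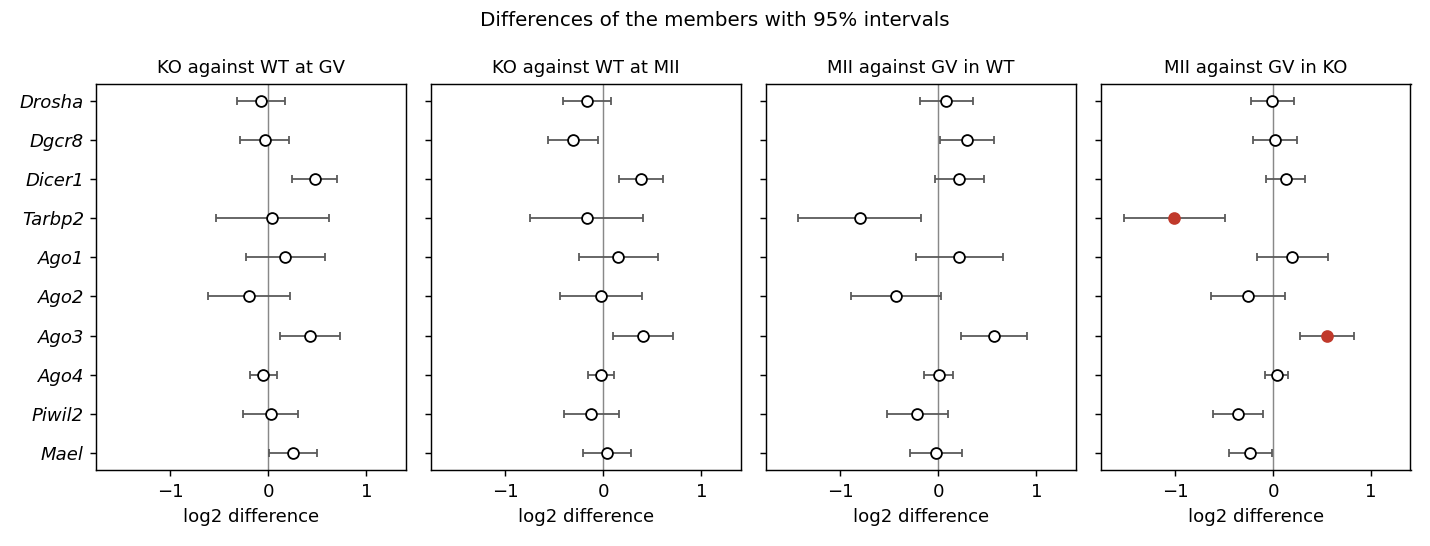
Difference of each member on the log2 scale with its 95% interval from limma, in 4 panels for KO against WT at GV and at MII and for MII against GV in WT and in KO oocytes. Filled red points passed an adjusted p under 0.05, namely Tarbp2 (-1.01) and Ago3 (0.55) in KO maturation. Intervals are for single genes, so several that exclude 0 (Dicer1 and Ago3 in both genotype panels) did not pass after adjustment over 65956 clusters.

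Of the 4 Argonautes, Ago3 alone had a called difference. Ago2, whose protein is the Argonaute known to cut its targets, passed no test on all 10 arrays. Ago2 read 9.66 and 8.98 in WT GV, 9.25, 9.14 and 8.98 in KO GV, 8.81 and 8.98 in WT MII and 8.93, 8.82 and 8.86 in KO MII. The first WT GV array stood above the others by 0.40 or more, and the remaining 9 arrays lay between 8.81 and 9.25. KO against WT it differed by -0.19 at GV (95% interval -0.61 to 0.23, adjusted p = 0.852) and by -0.02 at MII (-0.44 to 0.40, adjusted p = 0.989). From GV to MII it was lower by 0.43 in WT (adjusted p = 0.321, and 0.0244 at a difference of -0.77 without the second WT GV array) and by 0.26 in KO oocytes (adjusted p = 0.416), which became -0.11 and 0.08 under a further quantile normalisation, so the KO direction turned.

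Ago3 encodes a guide-binding Argonaute whose gene lies beside Ago1 and Ago4 on chromosome 4 in the order Ago3, Ago1, Ago4, with no other protein-coding gene between their starts in RefSeq (GRCm38.p6). Its levels were 10.32 and 10.12 in WT GV, 10.53, 10.84 and 10.57 in KO GV, 10.66 and 10.92 in WT MII and 11.26, 11.27 and 11.05 in KO MII. At each stage every KO array was above every WT array, and in each genotype every MII array was above every GV array. The MII minus GV difference was 0.55 ± 0.12 in KO oocytes (95% interval 0.27 to 0.82, 1.46-fold, adjusted p = 0.0226), which was called, and 0.57 ± 0.15 in WT oocytes (0.24 to 0.91, adjusted p = 0.0569), which was not. The 2 stage differences differed by -0.02 (-0.46 to 0.41, adjusted p = 0.991). KO exceeded WT by 0.43 ± 0.13 at GV (adjusted p = 0.318), by 0.41 ± 0.13 at MII (adjusted p = 0.248) and by 0.42 ± 0.09 on average (adjusted p = 0.0734), none of them called.

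The KO maturation call of Ago3 was lost without the first or the third KO GV array (adjusted p = 0.0786 and 0.0744) or the first or second KO MII array (0.083 and 0.0778), with the rise at 0.49 to 0.51 in those 4 fits. A further quantile normalisation raised it to 1.02 and called the WT difference as well (0.99, adjusted p = 0.00571), which was also called with cyclic loess, array weights, a filter on level, clusters with 1 gene name or the second KO GV array left out (0.0216 to 0.0486). In the fit over clusters with a mean level of at least 6 the average genotype difference of Ago3 was called, as Dicer1 was, and the same 2 members were called at a mean level of at least 8 and over clusters with 1 gene name. Such filters change the number of clusters the p-values are adjusted over, not the values of the gene.

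Ago1 and Ago4, the neighbours of Ago3, were at or below background on all arrays but 1. Ago1 read 5.69 and 5.49 in WT GV, 5.76 on all 3 KO GV arrays, 5.70 and 5.90 in WT MII and 6.34, 5.76 and 5.76 in KO MII. Only the first KO MII array exceeded the negative-control percentile, and 5.76 was the identical value on 5 arrays. Ago4, whose cluster also carries the older name Eif2c4, ranged from 4.72 to 4.82 over all 10 arrays. Neither gene passed a test in any comparison, with adjusted p between 0.534 and 0.998 for both genes over the 5 comparisons. At such levels a difference in expression was not detectable by these probes.

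Of the 2 members of the piRNA pathway, Mael was above background and Piwil2 was not. Mael, the mouse counterpart of the fly factor maelstrom, which sits in the germ granules called nuage and is needed to silence transposons in the male germ line, exceeded the negative-control percentile on all 10 arrays. It read 12.82 and 12.76 in WT GV, 13.13, 12.96 and 13.04 in KO GV, 12.85 and 12.69 in WT MII and 12.85, 12.95 and 12.63 in KO MII. The KO GV arrays were above both WT GV arrays and, by 0.015 at the nearest, above all 5 MII arrays. The difference KO against WT was 0.25 ± 0.11 at GV (95% interval 0.01 to 0.50, adjusted p = 0.522) and 0.04 ± 0.11 at MII (-0.20 to 0.28, adjusted p = 0.944). In KO oocytes Mael was lower at MII by 0.23 (adjusted p = 0.19), a direction that turned under a further quantile normalisation (0.14, adjusted p = 0.445), and in WT by 0.02 (adjusted p = 0.971), which turned to 0.46 (adjusted p = 0.0525).

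Piwil2 encodes a PIWI protein that binds piRNAs in the male germ line and was not above background on any array. Its levels were 5.24 and 4.91 in WT GV, 5.20, 5.19 and 4.90 in KO GV, 4.90 and 4.82 in WT MII and 4.74, 4.72 and 4.76 in KO MII. All 3 KO MII arrays were below the other 7. The GV to MII difference in KO oocytes was -0.36 ± 0.11 (95% interval -0.61 to -0.10, adjusted p = 0.086, and 0.0355 without the third KO GV array), and KO against WT it was 0.02 at GV and -0.12 at MII (adjusted p = 0.989 and 0.785). Differences between values that all lie below the negative-control percentile carry no order of expression.

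In the wider machinery most calls were across maturation. A further 77 genes were measured, 21 from 26 listed names of microRNA processing, export and turnover factors (older names of listed genes included), 18 of 22 cofactors of the Argonaute complex (RISC) and of its loading, 33 of 34 piRNA and nuage factors and all 5 transcripts reported as endo-siRNA targets in oocytes. KO against WT, 0 of 77 were called at GV (18 at an unadjusted p under 0.05, a value that 9.23% of all clusters reached). At MII 1 was called, or 1.3%, beside 0.829% of all clusters and 2.97% of those with a mean level of at least 6. On average 8 were called, 5 higher and 3 lower. From GV to MII 4 were called higher and 4 lower in WT, and 9 higher and 13 lower in KO oocytes. These shares, 10.4% for the average and for WT maturation and 28.6% for KO maturation, stand beside 1.89%, 7.15% and 10.5% of all clusters and 6.65%, 23.7% and 33.3% of those with a mean level of at least 6. When only the 4 WT arrays were fitted, 0 of the 8 WT maturation calls passed, and Gtsf1 had an adjusted p of 0.0623. The median difference over the 77 genes was 0.09 at GV, 0.06 at MII, 0.04 in WT maturation and -0.05 in KO maturation, against 0.02, -0.02, 0.02 and -0.01 over all clusters. The average count of 8 fell when any 1 array was left out, to 1 without the second WT GV array, to 3 without either WT MII array or the third KO GV array, to 4 without the first WT GV, first KO GV or first or second KO MII array, to 5 without the third KO MII array and to 6 without the second KO GV array. The KO maturation count fell from 22 to 14 without the first KO MII array, and the WT count from 8 to 5 without the first WT GV or first WT MII array and to 4 without the second WT MII array.

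**Figure D3:**
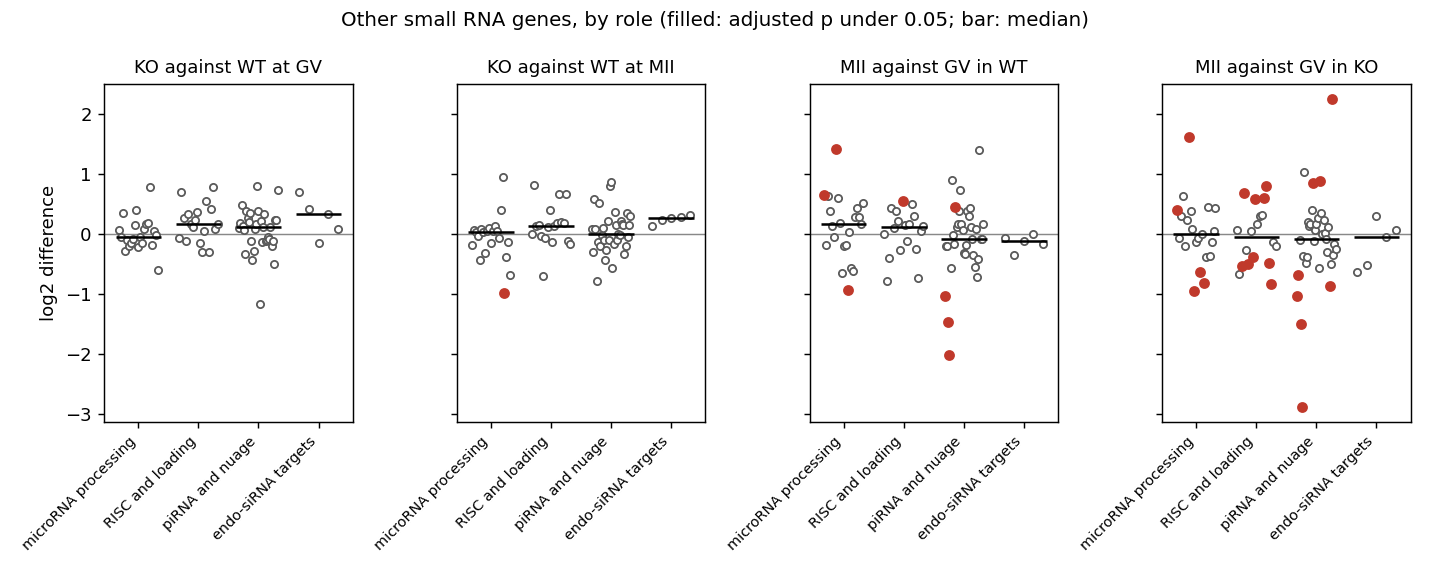
Log2 difference of each of the 77 other small RNA genes, grouped by role on the horizontal axis, in 4 panels for the same comparisons as the members. Filled red points passed an adjusted p under 0.05 over all clusters and bars are medians of a role. A single filled point (Xpo5) appears in the genotype panels, while maturation has 8 in WT and 22 in KO oocytes, in both directions.

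Among genes of microRNA processing, Xpo5, the exporter that carries the hairpin from nucleus to cytoplasm, differed by genotype at MII. It read 9.68 and 9.48 in WT GV, 9.48, 9.48 and 9.21 in KO GV, 9.91 and 10.10 in WT MII and 8.98, 8.9997 and 9.09 in KO MII. The MII arrays of the 2 genotypes were 0.81 apart at their nearest. The GV arrays met only at the identical value 9.48, found on the second WT and the first and second KO arrays. At MII it was -0.98 ± 0.11 in KO against WT (1.98-fold lower, adjusted p = 0.0179), and at GV -0.19 ± 0.11 (adjusted p = 0.714), and the difference of the 2 effects did not pass the adjusted test (-0.80 ± 0.16, adjusted p = 0.508). The MII call was lost without the first or second WT MII array (adjusted p = 0.0867 and 0.0595) or the second or the third KO MII array (0.0662 and 0.0633), and when only the 5 MII arrays were fitted (0.094).

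Khsrp, Ran and Ncbp1 were chosen from this role by the size of their maturation change. Khsrp, a splicing factor that also promotes processing of some precursors, rose from 7.96 and 8.06 to 9.07 and 9.78 in WT and from 7.63, 8.11 and 7.82 to 9.42, 9.33 and 9.62 in KO oocytes. That is 1.41 ± 0.24 in WT (adjusted p = 0.0101, lost without the first WT GV array at 0.0555) and 1.60 ± 0.19 in KO oocytes (adjusted p = 0.00138, called with every array left out in turn). Ran, the GTPase that drives XPO5 export, fell by 0.93 in WT and by 0.64 in KO oocytes (adjusted p = 0.0102 and 0.0161). The WT fall of Ran was not called without either WT GV array (0.0514 and 0.0519) or the second WT MII array (0.0651), and with a further quantile normalisation the falls were 0.60 and 0.35 and neither was called (0.057 and 0.145). Ncbp1, a cap-binding subunit, was above background on every GV array and on no MII array, in both genotypes. Against the negative-control percentile of the MII arrays it was at least 1.2-fold lower at MII in WT and 1.53-fold lower in KO oocytes. These bounds were not tested. The limma call concerns the measured KO difference of -0.96 (adjusted p = 0.046). The WT difference was -0.65 and was not called (limma adjusted p = 0.321). The 2 differences were not shown to differ (limma adjusted p = 0.932). Among the 10 fits that left out 1 array, the KO call was kept only without the second KO GV array. Adjusted p was 0.0742 to 0.147 in the other fits that left out a KO array.

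Tut7 and Zswim8 were named after their values were seen, because they were called in the average over both stages. Tut7, a terminal uridylyl transferase that adds uridines to let-7 precursors and to mRNA tails, read 9.03 and 8.86 in WT GV, 9.60, 9.57 and 10.03 in KO GV, 9.19 and 9.28 in WT MII and 10.18, 10.42 and 9.94 in KO MII. Every KO array was above every WT array, and the average excess was 0.86 ± 0.12 (1.82-fold, adjusted p = 0.0183, lost without the second WT GV or either WT MII array at 0.0664, 0.0705 and 0.0641). Zswim8, a ubiquitin ligase subunit for microRNA decay directed by targets, read 9.58 and 9.43 in WT GV, 8.81, 8.93 and 8.94 in KO GV, 9.73 and 10.30 in WT MII and 9.31, 9.37 and 9.30 in KO MII. All KO arrays were below all WT arrays, by 0.65 ± 0.11 on average (1.57-fold lower, adjusted p = 0.0266), and the call was kept without the second KO GV array or either of the 2 WT MII arrays and lost in the other 7 fits (0.0595 to 0.0709).

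Of the 18 Argonaute cofactors, 9 were called in KO maturation, 4 higher and 5 lower, beside 10.5% of all clusters and 33.3% of those with a mean level of at least 6. In WT maturation 1 of 18 was called, beside 7.15% and 23.7%, and the difference between the genotypes was called for 0 of 18 (3 at an unadjusted p under 0.05). Tsn, a subunit of the translin complex that clears the passenger strand, was the largest fall, from 13.92, 13.39 and 13.94 in KO GV to 12.92, 12.89 and 12.92 in KO MII, or -0.84 ± 0.17 (adjusted p = 0.015). In WT oocytes it went from 12.74 and 13.19 to 12.18 and 12.30 (-0.73 ± 0.20, adjusted p = 0.0798). The KO fall was lost without the first or the third KO GV array (0.0566 and 0.0535) or any of the 3 KO MII arrays (0.0511 to 0.0521), and was -0.49 under a further quantile normalisation (0.0626). Tnrc6c and Tnrc6a encode GW182 proteins, which link Argonautes to deadenylation. In KO maturation Tnrc6c rose by 0.79 ± 0.11 (adjusted p = 0.00311, called with every array left out) and Tnrc6a by 0.60 ± 0.14 (adjusted p = 0.0263, lost without any 1 of the 3 KO GV arrays or the first KO MII array at 0.0763, 0.0642, 0.0723 and 0.054). Tnrc6a had the identical value 9.32 on 3 KO GV arrays and 1 WT MII array. Fkbp5, an HSP90 cochaperone, rose by 0.68 ± 0.11 in KO oocytes (adjusted p = 0.00626). In WT oocytes the rises were 0.30 for Tnrc6c, 0.49 for Tnrc6a and 0.42 for Fkbp5, none called (limma adjusted p = 0.314, 0.145 and 0.131). Under a further quantile normalisation the KO rises of these genes were 1.23, 1.01 and 0.95. The WT rises were then 0.87, 0.80 and 0.73 and were called as well (adjusted p = 0.00746, 0.0176 and 0.00565).

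In the average over both stages 4 of the 18 cofactors were called, all higher in KO oocytes, beside 1.89% of all clusters (0.776% higher) and 6.65% of those with a mean level of at least 6. They were Tsn (0.73 ± 0.13, adjusted p = 0.0381), Tnrc6a (0.60 ± 0.11, adjusted p = 0.0359), and, named after their values were seen, Ipo8, an importin that binds Argonautes (0.38 ± 0.07, adjusted p = 0.0334) and Trim71, a let-7 target that represses mRNAs (0.30 ± 0.05, adjusted p = 0.0227). Trim71 had the identical value 6.67 on both WT GV arrays, so its spread is partly set by the summary. Its WT MII levels, 6.45 and 6.37, lay near the negative-control percentiles of those arrays, 6.42 and 6.17. At each stage the KO arrays of these 4 genes, named because they were called, were above the WT arrays. Arrays of the 2 genotypes did not overlap, in either direction, for 7 of the 18 cofactors at GV (21.0% of all clusters). At MII this held for 11 of 18 (28.0%) and over both stages together for 0 of 18 (2.18%). Tsn was called only without the second KO GV array, with adjusted p of 0.0509 to 0.13 in the other 9 fits that left out 1 array. Tnrc6a was called only without the second or the third KO MII array (0.0623 to 0.123 in the other 8), Ipo8 only without the first KO GV or the third KO MII array (0.0586 to 0.1), and Trim71 only without the second KO GV or first KO MII array (0.0502 to 0.0732).

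**Figure D4:**
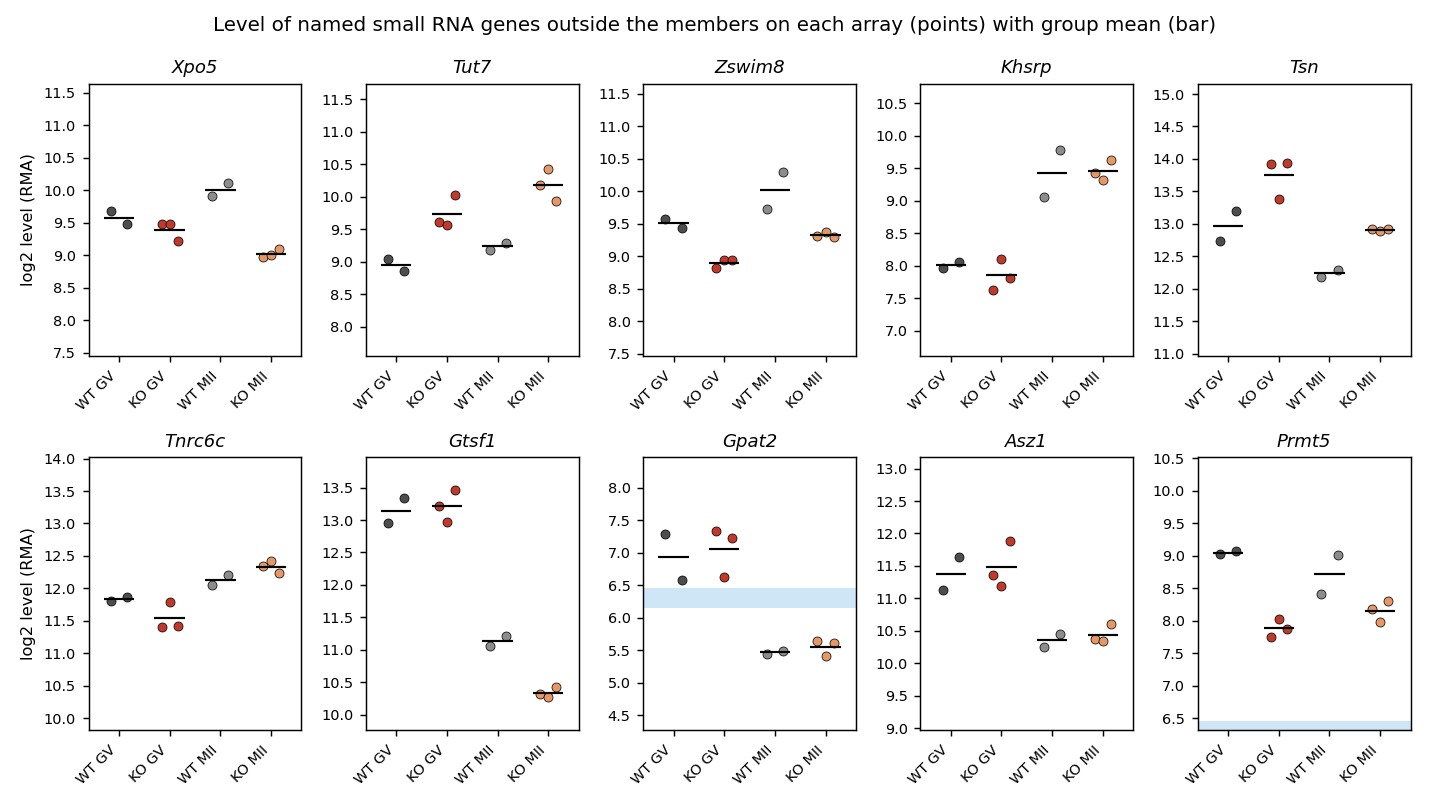
Levels of 10 named genes outside the members on each array, as log2 values after RMA, with points for arrays, bars for group means and a blue band for the 90th percentile of the negative controls. All panels span the same height. Xpo5 parts by genotype at MII (9.91 and 10.10 in WT, 8.98 to 9.09 in KO), Tut7, Zswim8 and Prmt5 part at both stages, and Gtsf1, Gpat2 and Asz1 fall from GV to MII in both genotypes.

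The largest changes of the whole machinery were in piRNA and nuage factors across maturation. Gtsf1, a zinc-finger partner of PIWI proteins, read 12.95 and 13.34 in WT GV and 13.22, 12.97 and 13.45 in KO GV, and 11.06 and 11.21 in WT MII and 10.32, 10.27 and 10.43 in KO MII. It fell by 2.01 in WT (4.03-fold, adjusted p = 0.000381) and fell by 2.87 in KO oocytes (7.32-fold, adjusted p = 2.84e-05), both called with every array left out. At MII the KO arrays were below the WT arrays by 0.79 ± 0.16 (adjusted p = 0.0753), and the difference between the 2 falls did not pass the adjusted test (-0.86 ± 0.23, adjusted p = 0.589). Gpat2, a mitochondrial acyltransferase needed for piRNAs in the male germ line, went from 7.29 and 6.57 to 5.44 and 5.48 in WT and from 7.33, 6.62 and 7.22 to 5.64, 5.41 and 5.61 in KO oocytes. Its MII levels were all below background, so the change has only a bound. Against the negative-control percentile of the MII arrays, Gpat2 was at least 1.55-fold lower at MII in WT and at least 1.63-fold lower in KO oocytes. No test was run on these bounds. The limma calls concern the measured differences, -1.47 in WT and -1.50 in KO oocytes (adjusted p = 0.0168 and 0.00404). The WT call was lost without the first WT GV array (-1.11) or either WT MII array (-1.45 and -1.49).

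Asz1, a nuage scaffold at mitochondria, went from 11.13 and 11.64 to 10.26 and 10.46 in WT and from 11.35, 11.19 and 11.89 to 10.38, 10.34 and 10.60 in KO oocytes. The falls were 1.03 in WT (adjusted p = 0.0442) and 1.04 in KO oocytes (adjusted p = 0.0137). Both were about 0.53 under a further quantile normalisation and not called (0.207 and 0.101). The WT call was lost without the second WT GV array (0.211), either WT MII array (0.217 and 0.11), the first KO GV array (0.0658) or any of the KO MII arrays (0.0759, 0.0716 and 0.0676), and the KO call without the first or second KO MII array (0.0536 and 0.0514). Tex19.1, a germ cell factor that restrains retrotransposons in mice, rose from 8.49, 7.05 and 8.49 to 10.10, 10.52 and 10.15 in KO oocytes (2.24 ± 0.41, adjusted p = 0.0101). In WT it went from 8.04 and 8.98 to 9.77 and 10.03 (1.39 ± 0.50, adjusted p = 0.174), and the 2 changes were not shown to differ (0.85 ± 0.64, adjusted p = 0.89).

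Across genotypes 1 of the 33 piRNA and nuage factors was called, in the average, which is 3.03% beside 1.89% of all clusters and 6.65% of those with a mean level of at least 6. Prmt5, the arginine methyltransferase that modifies PIWI proteins and many other substrates and was named after its values were seen, read 9.02 and 9.08 in WT GV, 7.76, 8.03 and 7.87 in KO GV, 8.42 and 9.02 in WT MII and 8.18, 7.98 and 8.31 in KO MII. All KO arrays were below all WT arrays. The average difference was -0.87 ± 0.13 (1.82-fold lower, adjusted p = 0.0192), lost without the second WT GV array (0.0674). At GV alone it was -1.17 ± 0.18 (adjusted p = 0.0633) and at MII -0.56 ± 0.18 (adjusted p = 0.23).

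The transcripts reported as endo-siRNA targets did not pass any test. All 5 were numerically higher in KO oocytes at MII and 4 of 5 at GV, with medians of 0.26 and 0.33, against -0.02 and 0.02 over all clusters. Rangap1, 1 of the 5, was above the negative-control percentile on only 4 of 10 arrays, so its direction lies at the edge of background. By limma 0 were called, with 2 of 5 at an unadjusted p under 0.05 at each stage (9.23% of all clusters at GV and 12.3% at MII). Kif4, a chromosome-bound kinesin and the target with the highest level, read 12.44 and 11.88 in WT GV, 12.49, 12.69 and 12.51 in KO GV, 11.90 and 11.71 in WT MII and 12.14, 11.84 and 12.14 in KO MII. It differed by 0.41 ± 0.17 at GV (adjusted p = 0.527) and 0.24 ± 0.17 at MII (adjusted p = 0.666). Pdzd11, a small PDZ-domain protein gene whose pseudogene pairs with its mRNA in mouse oocytes, read 10.05 on both WT GV arrays, 9.85, 9.82 and 10.02 in KO GV, 9.80 and 10.07 in WT MII and 10.21, 10.08 and 10.30 in KO MII. The difference was -0.15 ± 0.11 at GV (adjusted p = 0.775) and 0.26 ± 0.11 at MII (adjusted p = 0.383).

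Clusters annotated to microRNA hairpins were mostly near background. Of 991 such clusters 161 had a mean level of at least 6. Called were 0 at GV, 1 at MII (higher in KO) and 3 in the average (all higher), or 0.303% against 1.89% of all clusters. In maturation 26 were higher and 12 lower in WT and 31 higher and 32 lower in KO oocytes, which is 3.83% and 6.36% beside 7.15% and 10.5% of all clusters. A hairpin cluster reads the primary transcript around the hairpin and not the mature microRNA.

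Genes whose levels followed those of Dicer1, Ago2 and Mael most closely over the 10 arrays were found among 6629 clusters with 1 gene name and a mean level of at least 8. For Dicer1 they were Igf2bp3, an mRNA-binding protein, with Pearson's r of 0.97, Ect2, a guanine nucleotide exchange factor of cytokinesis, with 0.97, and Mrc1, the mannose receptor, with 0.969. For Ago2 they were Gm15511 (0.942), Trrap (0.935) and Twsg1 (0.924), and for Mael Elovl1 (0.929), 4933417E11Rik (0.9) and Zfp984 (0.898). These are descriptions over the same 10 arrays, which share their 4 groups, their normalisation and any difference in labelling.

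**Figure D5:**
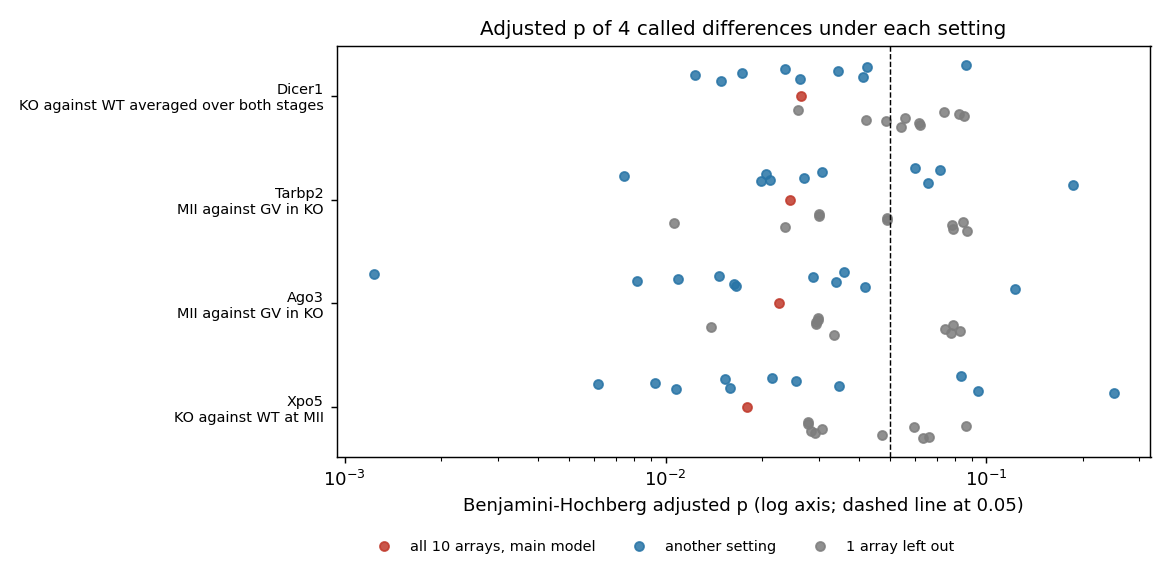
Adjusted p on a log axis for 4 called differences, Dicer1 in the average over both stages, Tarbp2 and Ago3 in KO maturation and Xpo5 at MII, with red for the model on all 10 arrays, blue for another setting and grey for fits with 1 array left out. The dashed line is 0.05. Red points lie between 0.0179 and 0.0264, and grey points fall on both sides of the line for all 4.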

How the data were processed

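The deposited values are log2 levels, which the authors obtained from the 10 arrays by RMA with the Expression Console of Affymetrix, whose version is not given in the sources used here. RMA shares 1 summary across arrays, so 52.3% of clusters had a value common to 2 or more arrays. Control features (6732) were left out. Of 65956 clusters, 31292 were annotated to 1 gene, 1522 to several and 33142 to none, and older names were updated through RefSeq. The genome build of the array design is not given in the sources used here, so no coordinates of clusters are printed. The coordinates of mature microRNAs are those of RefSeq on GRCm38.p6. limma 3.58.1 in R 4.3.3 (lmFit, contrasts, eBayes) estimated a mean for each group from all arrays, and two-sided p-values were adjusted over the clusters of a comparison by Benjamini-Hochberg. The residual degrees of freedom were 6 and the prior 2.02. The number of arrays, 2 or 3 per group, limits the precision. Depth does not apply to arrays. The fitting code was tested on simulated data. Members and gene lists were chosen with earlier results of these data known. Of each role, up to 4 called genes with the largest change were named, or the 2 with the highest level where fewer than 2 were called. Alternatives were other normalisations, filters on level, variance models, array weights, a replicate block, only the groups compared, the per-gene test of the methods, and each array left out. Figures were drawn with matplotlib 3.10.9.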

Additional observations from a re-analysis of the deposited data

Results flagged for a closer look

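The hybridisation control probe sets, which read RNA spiked in after labelling and enter none of the comparisons, differed by genotype. Their mean over 4 probe sets was higher on KO than on WT arrays by 0.497 at GV and by 0.266 at MII on the log2 scale, with every KO array above every WT array. This difference was looked at because it lies outside the oocyte RNA and has the same direction as that of Dicer1 and Ago3. Xpo5, Zswim8 and Prmt5 went the other way. Over all clusters 512 were called higher and 734 lower in KO oocytes in the average over both stages. The relation of the spiked controls to these differences was not tested.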

How the results depend on the processing

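With 2 WT arrays per stage, calls near the threshold moved with single arrays and settings. For the 10 members, KO against WT gave 0 calls at GV and 0 at MII under every alternative run. The average gave 1 call (Dicer1), 2 with a mean level of at least 6 or 8 or with 1 gene name, and 0 to 1 with 1 array left out. WT maturation gave 0, but 4 with the arrays quantile-normalised once more, 1 each with cyclic loess, array weights, the level filters and 1 gene name, and 0 to 1 with 1 array left out. KO maturation gave 2, but 3 with the arrays quantile-normalised once more (Drosha, Dicer1 and Ago3, with Tarbp2 lost), 1 with a level of at least 8 or with only the KO arrays, 0 with the methods' test after adjustment and 1 at its own threshold, and 0 to 2 with 1 array left out. Under the further quantile normalisation Drosha in KO maturation turned from -0.01 to 0.49 and was called. Uncalled maturation differences that also turned were those of Mael in both genotypes (KO -0.23 to 0.14, WT -0.02 to 0.46) and of Ago2 in KO oocytes (-0.26 to 0.08).

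For the 77 wider genes, GV went from 0 to 1 with either level filter or at the methods' own threshold and to 2 with 1 gene name. MII went from 1 to 2 (quantile, loess or weights), 7 (either level filter), 5 (1 gene name) and 0 (only the groups compared, and the methods' test both ways), and was 0 to 1 with 1 array left out. The average went from 8 to 5 with trend and robust variances and was 1 to 6 with 1 array left out. WT maturation went from 8 to 26 (quantile), 13 (1 gene name), 0 (only the groups compared, and the methods' test) and 1 (its own threshold), and was 4 to 9 with 1 array left out. KO maturation went from 22 to 5 and 6 with the methods' test and threshold, and was 14 to 24 with 1 array left out.

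Over all clusters, the GV count of 80 became 216 and 238 with a level of at least 6 and 8, 30 with trend and robust variances, 172 with 1 gene name, 0 with only the groups compared, 3 with the methods' test and 321 at its threshold, and 0 to 92 with 1 array left out. The MII count of 547 became 1153, 1030 and 278 with the filters and trend, 0 with only the groups compared and 10 with the methods' test, and 15 to 555 with 1 array left out. The average of 1246 became 2349 with a level of at least 6 and 814 with trend, and 432 to 1202 with 1 array left out. WT maturation went from 4719 to 7522 (quantile), 628 (only the groups compared), 9 (methods' test) and 2427 (its threshold), and 2477 to 4912 with 1 array left out. KO maturation went from 6934 to 2243 and 3388 with the methods' test and threshold, and 4764 to 6988 with 1 array left out. The interaction gave 0 to 2. A further quantile normalisation moved the share of calls that were higher from 25.0% to 36.2% at GV, 41.1% to 53.6% in the average, 27.4% to 62.3% in WT maturation and 32.1% to 63.3% in KO maturation, and the cause was not tested.

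The labels give same-numbered arrays only a number in common. The correlation of their deviations ran from -0.044 to 0.178, and 2 of 6 KO arrays correlated best with their own number. In a group of 2 arrays the deviations mirror each other. The correlations therefore cannot show whether same-numbered arrays were handled together. With the replicate number as a block the members had 0 calls in the average and 1 in KO maturation, the wider genes 0 at MII and 1 in the average, and all clusters 1 at GV, 53 at MII and 308 in the average. Dicer1 was then 0.46 with an adjusted p of 0.0865.

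Of 3454 alternative values for single genes, 3232 kept their side of the threshold, 155 lost a call, 66 gained one and 1 changed sign and was called. Among 2830 values of differences that were not called, 127 changed sign. Each member had 1 cluster, so the mean over several clusters of a gene could not be run.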
